A study of Bos taurus with 40 samples.

Results

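Transcripts of 3 factors linked to the silencing of retroelements, KIAA1551, FAM208A and FAM208B, were followed through the bovine ovarian follicle. They were taken by name, and each had 1 of the 59051 rows in all 4 count tables. FAM208A is the former symbol of TASOR, KIAA1551 that of RESF1 and FAM208B that of TASOR2. KIAA1551 and FAM208A had been proposed because their cumulus cell levels differed between oocyte fates, so those cumulus values are described here without a test.

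Oocyte complexes were matured in vitro, and samples were labelled by whether the oocyte reached the blastocyst stage or arrested at cleavage. The RNA counts cover granulosa cells, which line the follicle, cumulus cells, which surround the oocyte, and a biopsy of the ooplasm, with 4 libraries per fate and cell type. A further 4 biopsies carried the same numbers as 4 whole oocytes, with no fate in their labels. The labels give no breed or age, all RNA samples carry the genotype label Diploid, and no treatment separates the groups. Granulosa cells and biopsies shared oocyte labels and came from the same 8 follicles. The labels tie no sample to an animal, and the p-values reflect spread among samples that may be partly technical.

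TASOR is the scaffold of the human silencing hub (HUSH) complex, which it forms with MPP8 and periphilin. In human cells HUSH is recruited to young retroelements and to intronless transgenes, and works with the methyltransferase SETDB1 to place the repressive histone mark H3K9me3. RESF1 is known from mouse embryonic stem cells, where it takes part in SETDB1-dependent repression of endogenous retroviruses. TASOR2 is the paralog of TASOR. Mammalian germ cells rely on such repression to limit retroelement activity.

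Libraries held 7964591 to 9592127 counts in cumulus cells, 9875705 to 17668550 in granulosa cells, 16804281 to 22557007 in biopsies and 13442089 to 23790073 in the matched set. Levels are given in CPM, the usual rescaling of a count by its library's total, with SD over 4 libraries. They compare samples for 1 transcript and not transcripts with each other, since they are not divided by length. The 3 transcripts had between 290 and 9454 counts in every library. Of the cell type markers chosen for a check, 1 of 12 oocyte genes had a row under its symbol, and 0 of 8 granulosa and 0 of 6 cumulus genes did. That gene, H1FOO, the oocyte linker histone, ran at 532.8 to 1548.1 CPM in biopsies and oocytes. It was at 0 in 7 of 8 cumulus libraries and had 1 count in the other. The somatic labels could not be checked further.

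**Figure D1:**
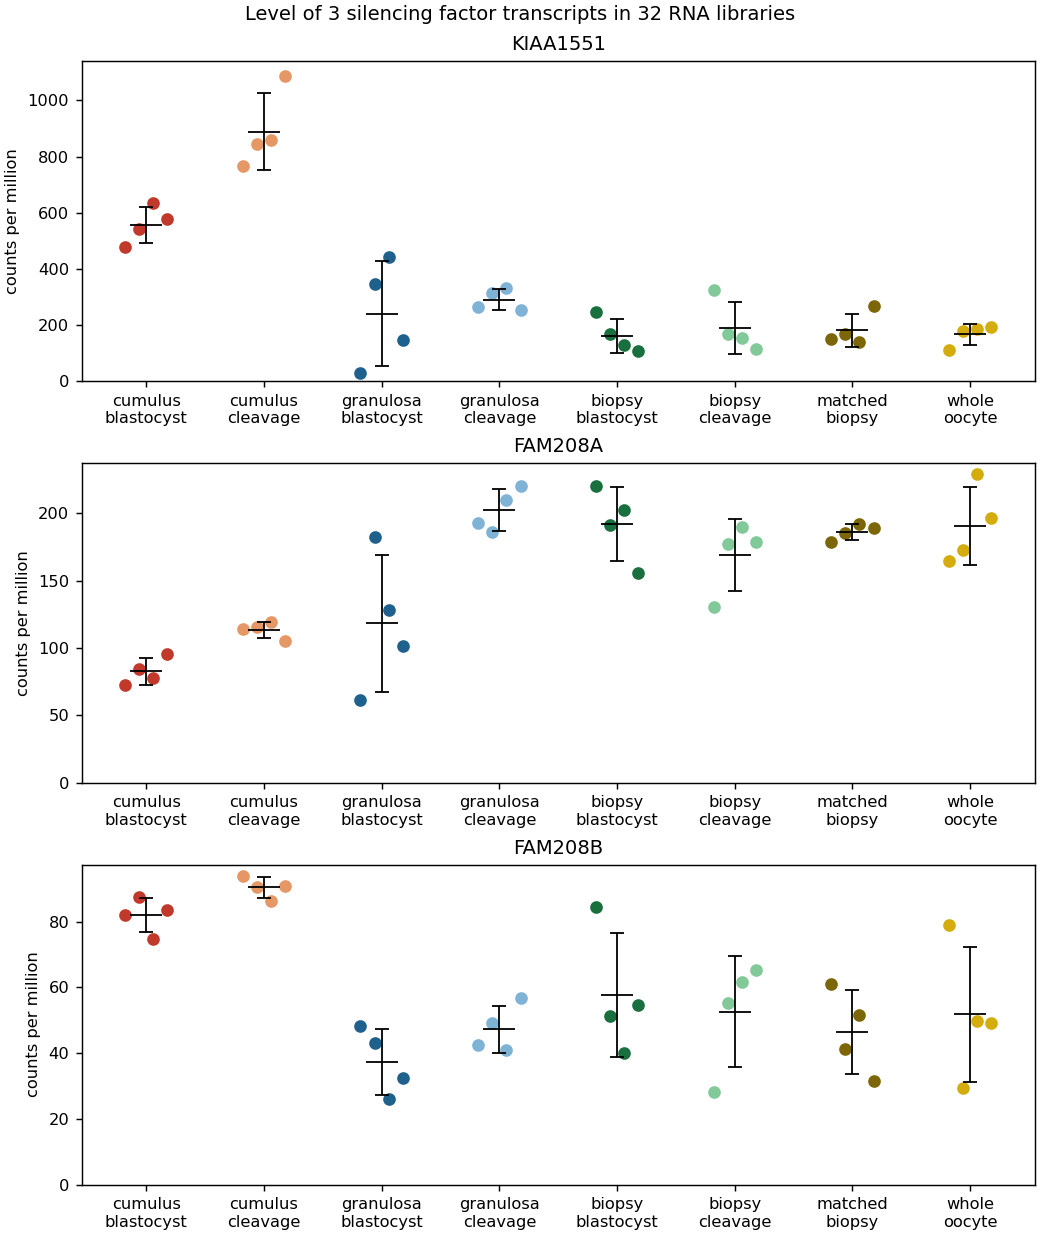
Level of KIAA1551, FAM208A and FAM208B in CPM of the library total, by group. Each point is 1 library, and the bar and whiskers are the mean and SD of 4. On this scale the means of KIAA1551 and FAM208B are highest in the cumulus groups and that of FAM208A is lowest in the blastocyst cumulus group at 82.8 CPM. With TMM the FAM208A mean is lowest in blastocyst granulosa cells, and whole oocytes pass blastocyst cumulus cells for FAM208B.

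In cumulus cells, both transcripts that had been proposed were lower when the oocyte went on to form a blastocyst. KIAA1551 stood at 476.8, 540.5, 633.3 and 575.9 CPM in the 4 blastocyst libraries. In the cleavage libraries it stood at 765.5, 845.8, 859.0 and 1087.5 CPM. Every blastocyst library lay below every cleavage library, with a gap between 633.3 and 765.5 CPM. The fitted ratio was 0.62 (log2 -0.69). FAM208A stood at 72.6, 84.8, 78.1 and 95.7 CPM in the blastocyst libraries. Its cleavage libraries read 113.8, 115.8, 119.7 and 105.6 CPM. Here too the groups did not overlap, at a ratio of 0.721 (log2 -0.47). Such a separation with blastocyst libraries lower held for 4.34% of the 15410 rows tested, and nothing is read from it for transcripts chosen on this contrast.

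FAM208B, the paralog, was closer between the cumulus fates. Its blastocyst libraries read 82.2, 87.5, 74.8 and 83.6 CPM, and its cleavage libraries 94, 90.7, 86.2 and 90.8 CPM. The groups overlapped between 86.2 and 87.5 CPM in library totals, and the ratio was 0.899 (log2 -0.15). With TMM over all 32 libraries they were narrowly apart (80.3 at most against 81.6 at least). The share of all rows apart on that scale was not counted. Within each cumulus library the ratio of KIAA1551 to FAM208A counts does not depend on scaling. It overlapped between fates, with a log2 of 2.75 ± 0.19 in the blastocyst and 2.96 ± 0.28 in the cleavage group (n = 4). Across all rows, 0% passed an adjusted p under 0.05 with the edgeR quasi-likelihood test, 2249 had an unadjusted p under 0.05, and the DESeq2 Wald test called 140 rows. The 8 cumulus libraries were alike in depth and had 16591 to 17113 rows with 5 or more counts. As these are bulk samples, fewer cells of a type and less RNA per cell cannot be told apart.

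In granulosa cells of the same fates, none of the 3 transcripts passed. FAM208A stood at 61.6 (B20), 182.4 (B21), 128.1 (D24) and 101.5 CPM (D27) in the blastocyst group. In the cleavage group it stood at 193.2 (B14), 186.0 (B23), 209.8 (D10) and 220.4 CPM (D29). All 4 blastocyst libraries lay below all 4 cleavage libraries, a separation seen for 1.65% of the 22934 rows tested. The log2 change was -1.24 (SE 0.49, 95% interval -2.32 to -0.16, edgeR quasi-likelihood adjusted p = 0.0940), whereas DESeq2 gave -1.03 (Wald test adjusted p = 0.0323). With edgeR 21.6% of all rows passed, 21.3% higher and 0.349% lower in the blastocyst group. Without B21 the adjusted p of FAM208A was 0.0494 (log2 -1.74, edgeR), and without both B20 and D27 it was 0.245 (log2 -0.65), with 0 rows passing in all. That last fit kept only B21 and D24 in the blastocyst group. The loss of B20 and D27 themselves and the smaller group cannot be told apart.

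KIAA1551 varied more than the other 2 among the blastocyst granulosa libraries. It stood at 29.4 CPM in B20, 345.4 in B21, 442.2 in D24 and 145.5 in D27. The cleavage libraries read 263.6, 313.1, 330.4 and 254.1 CPM for B14, B23, D10 and D29. In these CPM of library totals B20 and D27 lay below every cleavage library and B21 and D24 above every one, and the coefficient of variation was 77.9% against 12.8%. With TMM over all 32 libraries B21 also lay below every cleavage library (225.8 against 227.5 or more) and D24, at 296.5, below D10 at 331.3. The mean difference was not past the threshold (log2 -0.67, SE 0.76, 95% interval -2.34 to 1, edgeR adjusted p = 0.495). Without B20 and D27 it turned to 0.17.

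FAM208B stood at 48.1, 43.1, 26 and 32.4 CPM in B20, B21, D24 and D27, against 42.5, 49.1, 41 and 56.7 CPM in B14, B23, D10 and D29. The groups overlapped in CPM of library totals, but not with TMM over all 32 libraries, where they ran from 16.9 to 28.2 and from 39.4 to 50.7. How many of all rows were apart on the TMM scale was not counted, so nothing is read from that separation. The log2 change was -0.91 (SE 0.35, 95% interval -1.67 to -0.15, edgeR adjusted p = 0.0825), and without B21 it passed at -1.26 (edgeR adjusted p = 0.0455). The median of all rows was 0.10 on the TMM scale, trimmed-mean library factors, and 0.70 with library totals. Relative to that median, FAM208B was lower by a log2 difference of -1.01 and -1.03 on these scales, FAM208A by -1.34 and -1.46, and KIAA1551 by -0.77 and -0.96.

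B20 and D27 also differed from the rest in other ways. They had the fewest counts of the granulosa set (9875705 and 10821126) and the most rows with 5 or more counts (28629 and 28473). H1FOO stood at 34.2 CPM in B20 and 19.1 in D27, against 9.66 in B21, 5.83 in D24 and 0.234 to 5.1 in the cleavage libraries. Their part in the levels of the 3 transcripts was not tested. The labels B and D each hold 2 libraries per fate. Within them, in CPM of library totals, FAM208A had similar log2 changes of -0.84 and -0.92, while KIAA1551 had -1.51 and -0.19 and FAM208B -0.00 and -0.73.

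**Figure D2:**
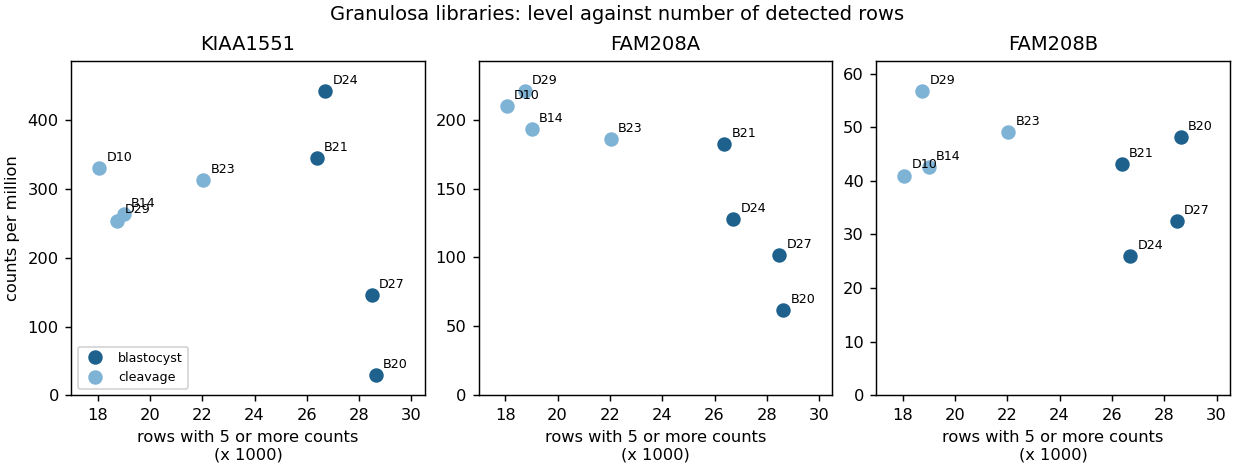
Level in CPM (vertical) against the number of rows with 5 or more counts (horizontal) in the 8 granulosa libraries, 1 panel per transcript. B20 and D27 have the most detected rows and the lowest KIAA1551 and FAM208A, at 29.4 and 145.5 CPM and at 61.6 and 101.5 CPM.

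In ooplasm biopsies, fate was not accompanied by a detectable difference. FAM208A stood at 220.3, 191.5, 202.3 and 155.4 CPM in blastocyst biopsies B20, B21, D24 and D27. Cleavage biopsies B14, B23, D10 and D29 read 130.3, 177.6, 189.8 and 178.7 CPM. The groups overlapped, and the log2 change was 0.18 (95% interval -0.31 to 0.67, edgeR adjusted p = 1). KIAA1551 stood at 245.2, 167.3, 128.9 and 107.8 CPM in the blastocyst and at 324.8, 168.8, 155.0 and 113.7 CPM in the cleavage biopsies. B14 was its highest biopsy and the lowest for both FAM208A and FAM208B. Its log2 change was -0.25 (95% interval -1.02 to 0.52, edgeR adjusted p = 1), and without B14 it turned to 0.18. FAM208B, at 40.1 to 84.5 CPM against 28.2 to 65.3, had a log2 change of 0.13 (95% interval -0.61 to 0.86, edgeR adjusted p = 1). With edgeR 0% of 21174 rows passed, 1017 had an unadjusted p under 0.05, and DESeq2 called 172 rows.

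Granulosa cells and the biopsy of the same follicle could be set side by side. In all 4 blastocyst follicles FAM208A was higher in the biopsy than in the granulosa cells, with log2 ratios of 1.84, 0.07, 0.66 and 0.62 for B20, B21, D24 and D27. In all 4 cleavage follicles it was lower, at -0.57, -0.07, -0.14 and -0.30 for B14, B23, D10 and D29. These levels are CPM of library totals, on which 0.0461% of the 28229 rows tested had the same split of signs. With TMM over all 32 libraries D10 turned (226.0 in the biopsy against 210.4 in granulosa cells), so that the biopsy was lower in 3 of the 4 cleavage follicles, and the full split held for 0.368% of rows. The ratios of B21 and B23 were close to 0. The difference between the fate changes of the tissues, granulosa minus biopsy, was -1.61 for FAM208A (SE 0.52, 95% interval -2.69 to -0.52, edgeR adjusted p = 0.0637), where 6.9% of rows passed. Library totals brought it to -0.95 (edgeR adjusted p = 0.144), and leaving out granulosa B20 and D27 to -0.91 (edgeR adjusted p = 0.290). The latter fit kept only B21 and D24 in the blastocyst granulosa group. DESeq2 size factors gave -1.54 (edgeR adjusted p = 0.0330), as did the DESeq2 Wald test (adjusted p = 0.00293). Leaving out granulosa B21 gave -1.98 (edgeR adjusted p = 0.0276). For FAM208B this difference was -1.20 (edgeR adjusted p = 0.141) and for KIAA1551 -0.61 (edgeR adjusted p = 0.728).

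**Figure D3:**
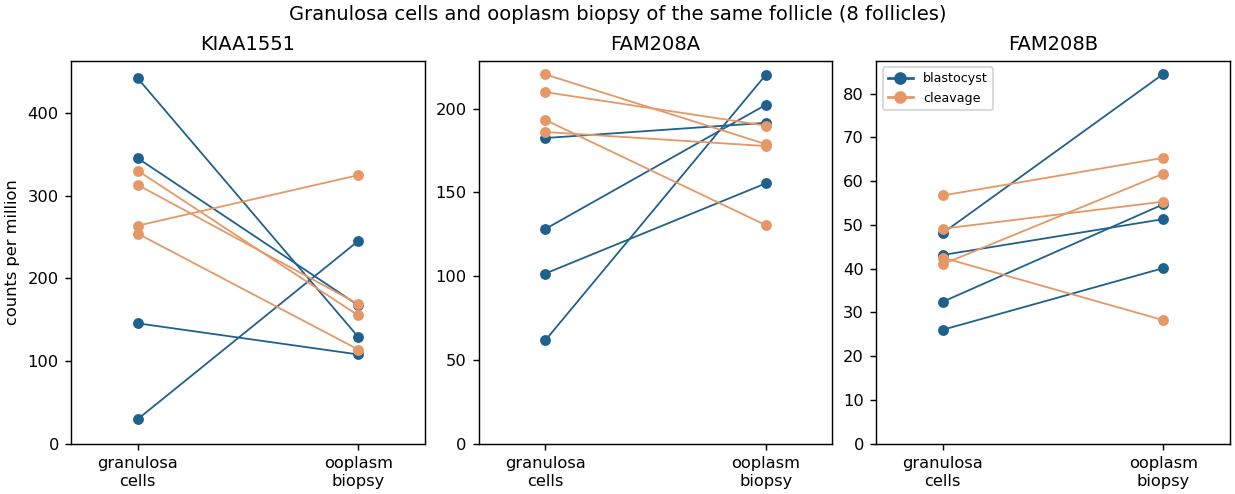
Level in CPM in the granulosa cells and the ooplasm biopsy of each of 8 follicles, joined by a line and coloured by fate. For FAM208A the 4 blastocyst follicles rise from granulosa cells to biopsy and the 4 cleavage follicles fall, while FAM208B is higher in the biopsy in 7 of 8 follicles. With TMM the cleavage follicle D10 rises for FAM208A, from 210.4 to 226.0.

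KIAA1551 was lower in the biopsy than in the granulosa cells in 6 of 8 follicles, the exceptions being B20 (245.2 against 29.4 CPM) and B14 (324.8 against 263.6 CPM). With TMM over all 32 libraries D27 was a further exception (116.0 against 75.8), leaving 5 of 8. Over all 8 follicles its fitted log2 difference was -0.11 (SE 0.34, edgeR adjusted p = 0.799), and without the granulosa libraries B20 and D27 it was -0.61 (edgeR adjusted p = 0.0234). FAM208B was higher in biopsies with a log2 difference of 0.95 (SE 0.20, edgeR adjusted p = 0.000117), and FAM208A with 0.73 (SE 0.20, edgeR adjusted p = 0.00212), or 0.36 without the granulosa libraries B20 and D27 (edgeR adjusted p = 0.0432). Of all rows 62.2% passed in this comparison, and 33.6% were higher in biopsies. The fit left the pairing by follicle out. A fit with the follicle as a replicate block gave 0.91 for FAM208B (edgeR adjusted p = 0.0128) and 0.81 for FAM208A (edgeR adjusted p = 0.0231). Both calls ended with library totals, at 0.39 for FAM208B (edgeR adjusted p = 0.110) and 0.22 for FAM208A (edgeR adjusted p = 0.238). On the CPM scale the median of FAM208A was 184.3 in biopsies and 184.2 in granulosa cells. The median of all rows moved from 0.06 to -0.49 between the scalings, and relative to it FAM208B stood at 0.89 and 0.88 and FAM208A at 0.67 and 0.71.

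Between the cell types, KIAA1551 was highest in cumulus cells. It ran from 476.8 to 1087.5 CPM (median 699.4) in 8 cumulus libraries, from 29.4 to 442.2 (median 288.4) in 8 granulosa libraries and from 107.8 to 324.8 (median 166.7) in 16 biopsies and oocytes. No cumulus library overlapped with any library of another kind. How many of all rows were apart from every other kind in this way was not counted, so nothing is read from that separation. KIAA1551 was lower in granulosa than in cumulus cells by a log2 difference of -1.68 (SE 0.35, edgeR adjusted p = 0.000161, n = 8 each). Here 51.7% of rows passed, 18.8% as lower, and 12.4% had lower granulosa libraries with no overlap. In whole oocytes it was lower than in cumulus cells by -1.29 (SE 0.44, edgeR adjusted p = 0.0101), where 69.7% of rows passed, 27.8% as lower, and 33% had lower oocyte libraries with no overlap. The oocyte call was lost, just past the threshold, without oocyte 2 (log2 -1.08, edgeR adjusted p = 0.0508). These cell types stand in separate deposited tables, so cell type and table cannot be told apart.

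FAM208A was lower in cumulus cells than in biopsies and oocytes. It ran from 72.6 to 119.7 CPM (median 100.6) in cumulus cells and from 130.3 to 229.2 CPM (median 187.2) in biopsies and oocytes. Whole oocytes exceeded cumulus cells by a log2 difference of 1.73 (SE 0.24, edgeR adjusted p = 1.14e-07), and by 0.98 with library totals. Of all rows 41.9% were called higher in oocytes, and 31.3% were higher with no overlap, as FAM208A was. Granulosa cells, at 61.6 to 220.4 CPM, spanned the cumulus range, and their difference from cumulus cells did not pass (log2 0.36, SE 0.20, edgeR adjusted p = 0.134). It passed with library totals (0.68, edgeR adjusted p = 0.000827), with DESeq2 size factors (0.57, edgeR adjusted p = 0.00336) and without the granulosa libraries B20 and D27 (0.77, edgeR adjusted p = 8.87e-05). It also passed without B20 alone (0.50, edgeR adjusted p = 0.0108) or B23 alone (0.60, edgeR adjusted p = 0.0122). The median of all rows was 0.20 with TMM and 0.55 with library totals, and relative to it FAM208A stood at 0.16 and 0.13.

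FAM208B shared the high cumulus level of KIAA1551, with 74.8 to 94 CPM there and 26 to 56.7 CPM in granulosa cells. The log2 difference of granulosa minus cumulus cells was -1.40 (SE 0.20, edgeR adjusted p = 9.48e-07), with no overlap between 8 and 8 libraries, a separation in this direction seen for 12.4% of rows. In whole oocytes it stood at 78.9, 29.3, 49.9 and 49 CPM for oocytes 2, 3, 6 and 16. Oocytes and cumulus cells did not differ past the threshold (log2 -0.06, 95% interval -0.56 to 0.44, edgeR adjusted p = 0.868) with TMM. With library totals the log2 difference was -0.73 (edgeR adjusted p = 0.0159). The median of all rows was 0.68 with TMM and 0.00 with library totals, so that FAM208B stood at -0.74 and -0.73 relative to it, KIAA1551 at -1.97 and -2.07, and FAM208A at 1.05 and 0.98.

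**Figure D4:**
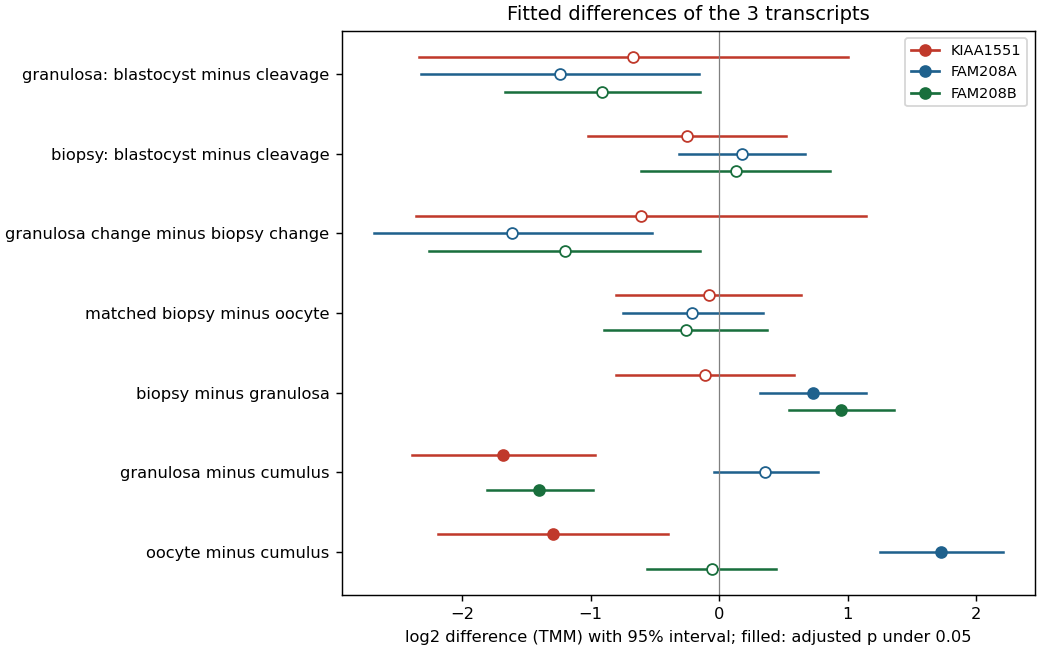
Fitted log2 differences of the 3 transcripts with 95% intervals in 7 comparisons, on the TMM scale. Filled points have an adjusted p under 0.05, and the fate comparison of cumulus cells, which was not tested, is left out. KIAA1551 lies left of 0 and FAM208A right of 0 in oocyte minus cumulus, at -1.29 and 1.73.

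In order of mean level, KIAA1551 ran from blastocyst biopsies (162.3 ± 60.5 CPM) through whole oocytes (167.6 ± 37.3), matched biopsies (180.7 ± 60.2), cleavage biopsies (190.6 ± 92.5), blastocyst granulosa cells (240.6 ± 187.3) and cleavage granulosa cells (290.3 ± 37.2) to blastocyst (556.6 ± 65.5) and cleavage cumulus cells (889.4 ± 138.3). Neighbours overlapped up to cleavage granulosa cells, and the next 2 steps were apart. FAM208A ran from blastocyst (82.8 ± 9.95 CPM) and cleavage cumulus cells (113.7 ± 5.95) through blastocyst granulosa cells (118.4 ± 50.7) to cleavage granulosa cells (202.3 ± 15.6). The 4 groups of biopsies and oocytes lay between the last 2, at 169.1 to 192.4 CPM, and overlapped each other. FAM208B ran from 37.4 ± 10 CPM in blastocyst granulosa cells to 90.4 ± 3.19 in cleavage cumulus cells, and all its neighbours overlapped. With TMM over all 32 libraries cumulus cells stayed highest for KIAA1551, but blastocyst granulosa cells became lowest for FAM208A (71.5 against 76.5 CPM in blastocyst cumulus cells). Whole oocytes passed blastocyst cumulus cells for FAM208B (76.8 against 75.8 CPM).

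The ratio of KIAA1551 to FAM208A counts within a library showed the cumulus cells apart on a measure free of scaling. Its log2 ran from 2.59 to 3.36 in the 8 cumulus libraries (median 2.79). In the 8 granulosa libraries it ran from -1.07 (B20) to 1.79 (D24), with a median of 0.58. In the 16 biopsies and oocytes it ran from -0.65 to 1.32 (biopsy B14), with a median of -0.23. The 24 libraries of the other kinds therefore all lay below the lowest cumulus library. How many other pairs of rows set the cumulus libraries apart was not counted, so nothing is read from this separation. The ratio sets KIAA1551, already highest in cumulus cells, over FAM208A, already lower there than in biopsies and oocytes. Cell type and deposited table cannot be told apart for this ratio either. Granulosa cells of the 2 fates had means of 0.54 ± 1.20 and 0.52 ± 0.24, so the low B20 library was offset by the high D24 library.

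**Figure D5:**
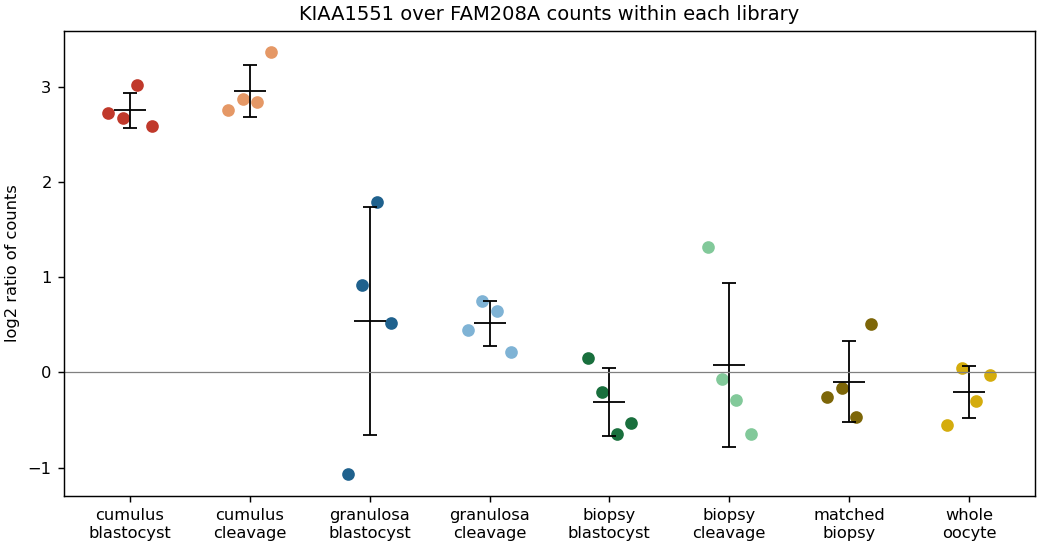
The log2 ratio of KIAA1551 to FAM208A counts within each library, by group, with mean and SD of 4 libraries. Cumulus libraries lie between 2.59 and 3.36, and the highest other library is at 1.79.

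No transcript differed past the threshold between matched biopsies and whole oocytes, within wide intervals. FAM208A stood at 178.8, 185.4, 192.2 and 189.0 CPM in biopsies 2, 3, 6 and 16 and at 164.8, 173.0, 229.2 and 196.3 CPM in the oocytes of these numbers. The biopsies spread less than the oocytes, with a coefficient of variation of 3.07% against 15.1%, a difference that was not tested. Its log2 difference was -0.21 (95% interval -0.75 to 0.34, edgeR adjusted p = 0.980). KIAA1551 stood at 149.1, 166.1, 138.3 and 269.3 CPM in the biopsies and at 112.3, 179.0, 186.6 and 192.4 CPM in the oocytes. The groups overlapped, with biopsy 16 highest and oocyte 2 lowest, and the log2 difference was -0.08 (95% interval -0.80 to 0.64, edgeR adjusted p = 0.995). FAM208B stood at 61, 41.2, 51.5 and 31.6 CPM in the biopsies, and its log2 difference was -0.26 (95% interval -0.90 to 0.37, edgeR adjusted p = 0.980). In CPM of library totals each transcript was higher in the biopsy in 2 of 4 pairs. With TMM over all 32 libraries that count was 2 for KIAA1551, 1 for FAM208A and 0 for FAM208B. With edgeR 0% of 18540 rows passed, 1028 had an unadjusted p under 0.05, and DESeq2 called 177 rows.

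Other genes of retroelement silencing could be read for 4 of 75 listed symbols. MPHOSPH8, PPHLN1, SETDB1 and MORC2, the partners of TASOR in human HUSH silencing, had no row under a symbol and are not analysed here. The same holds for TRIM28. MORC1, a germ cell ATPase that represses transposons in mice, stood at 33.8 to 48.8 CPM in whole oocytes, and the 8 cumulus libraries held 7 counts in all. RNF17, a Tudor protein of the male germ line in mice, stood at 44.5 to 66.7 CPM in oocytes, against 8 counts over the cumulus libraries. MORC1 and RNF17 were the 2 of 4 rows that rose in blastocyst granulosa cells, to 55.6 ± 48.5 against 1.46 ± 1.46 CPM and to 40.8 ± 33.2 against 2.06 ± 1.27 CPM (edgeR adjusted p = 0.0148 and 0.0116). The median log2 change of the 4 rows was 2.32, against 0.10 over all rows, of which 21.3% were called higher. H1FOO was higher in the same libraries, at 5.83 to 34.2 against 0.234 to 5.1 CPM, and its part in these values was not tested. Without B20 and D27, with only B21 and D24 left in the blastocyst group, no row passed between granulosa fates. TDRKH, a piRNA pathway Tudor protein, and MORC4 did not pass there. In biopsies 0 of the 4 passed between fates (median -0.56), in cumulus cells MORC4 alone was tested and did not pass (log2 -0.05, edgeR adjusted p = 0.824), and between matched biopsies and oocytes 0 of 4 passed (median -0.16).

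Genes derived from retroelements or transposases, which are not themselves readouts of silencing, had 10 rows for 45 listed symbols. Between cumulus fates 5 were tested and 0 passed, with a median log2 change of 0.02 against 0.00 over all rows. The retrotransposon-derived RTL8C, for one, stood at 91.0 ± 10.1 in the blastocyst and 83.4 ± 6.49 CPM in the cleavage cumulus cells (log2 0.11, edgeR adjusted p = 0.562). A second row bearing that symbol in RefSeq (LOC783730) stood at 45.0 ± 3.32 and 40.3 ± 2.62 CPM (log2 0.14, edgeR adjusted p = 0.414), and reads shared by the copies were not tested. In oocytes RTL8C was lower than in cumulus cells, at 0.208 to 1.62 CPM (log2 -5.71). BERV-K1, an endogenous retroviral envelope gene known from bovine placenta, stood at 0.251 to 1.15 CPM in cumulus cells and 0.184 to 2.89 CPM in granulosa cells. In biopsies and oocytes it did not exceed 0.0976 CPM.

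In granulosa cells 1 of 6 tested rows of this list fell in the blastocyst group, against 0.349% of all rows called lower. It was FAM200B, a transposase-derived gene (LOC100849050), at 7.65 ± 2.46 against 31.3 ± 27.6 CPM (log2 -2.61, edgeR adjusted p = 0.0399). Its libraries overlapped between the fates, at 4.07 to 9.53 against 6.96 to 56 CPM. Without B20 and D27, with only B21 and D24 left in the blastocyst group, no row passed between granulosa fates. Nothing is read for the list from this 1 row. The list's median there was -1.24 against 0.10 over all rows. In biopsies 0 of 3 passed between fates and between matched biopsies and oocytes 0 of 5. For granulosa minus cumulus cells 1 of 8 was higher and 4 lower, against 32.9% and 18.8% of all rows, and for oocyte minus cumulus cells 1 of 8 was higher and 4 lower, against 41.9% and 27.8% of all rows. In each comparison the lower rows held both RTL8C rows, whose shared reads were not tested. They also held low rows, RTL4 for granulosa cells (1.15 CPM in cumulus cells of either fate) and BERV-K1 for oocytes. Nothing is read for the list from these counts.

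Among the rows under a symbol, those whose levels followed each transcript most closely were picked by Pearson's r of TMM log2 CPM. Over all 32 RNA libraries, 531 rows with a mean of 10 CPM or more were compared. KIAA1551 was followed by EPRS, the glutamyl-prolyl tRNA synthetase (r = 0.868, Spearman's rho = 0.823), then by ZNF664, NARS, RHOB and CHMP1B (r = 0.820 or more). FAM208A was followed by U2SURP, a splicing-associated protein (r = 0.932, rho = 0.907), H3F3A, which encodes the replacement histone H3.3 (r = 0.922, rho = 0.905), C20H5orf51, MARCH7 and SEPT7. FAM208B was followed by ADO, a thiol dioxygenase (r = 0.805, rho = 0.595), SMKR1, TNFRSF17, ZNF664 and GARS. KIAA1551 and FAM208A were not alike over these libraries (r = 0.128, rho = -0.203). Libraries of a cell type share their table, and the values mostly follow cell type.

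Within the 8 cumulus libraries alone, KIAA1551 and FAM208A ran together (r = 0.810, rho = 0.786), and 423 rows were compared. KIAA1551 was closest to TPR, a nuclear pore protein (r = 0.941, rho = 0.952), TARS, LUZP6, DOPEY1 and CBWD2. FAM208A was closest to COL4A3BP, a ceramide transporter (r = 0.968, rho = 0.976), TROVE2, which binds misfolded RNA, ADNCR, NUFIP2 and SEPT7. FAM208B was closest to FAM160B1 (r = 0.952, rho = 0.905), KLHL31, SLC25A24, TROVE2 and RESTA. These libraries hold both fates, whose difference chose KIAA1551 and FAM208A, so the values describe that difference as well.

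Shared reads could touch FAM208A. In the RefSeq annotation of the ARS-UCD2.0 assembly TASOR overlaps its neighbour CCDC66, which has no row under a symbol, and reads from the overlap could not be assigned here. RESF1 has no overlapping gene there, and TASOR2 overlaps a small nucleolar RNA gene.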

How the data were processed

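RNA counts are whole numbers, as the authors deposited them in 4 tables with 59051 rows each. The tools named in the submitters' processing notes are STAR, featureCounts, cutadapt and Trim Galore, with Bismark and methylKit for polar body DNA. No version, strand setting or genome build was found (not given in the sources used here). SMART-Seq HT was the cDNA kit and Nextera XT the library kit, per the labels' protocols. The polar body table has 24 value columns numbered alone, which could not be tied to samples and were not used. Cumulus columns give the fate and a number absent from the titles.

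Tests used the robust quasi-likelihood F test of edgeR 4.0.16 in R 4.3.3, after filterByExpr and TMM scaling. Benjamini-Hochberg adjustment ran over all rows and adjusted p under 0.05 was called. Fate and matched comparisons were fitted on their own 8 libraries, the fate difference between granulosa cells and biopsies on 16, and cell type differences on all 32. DESeq2 1.42.0, other scalings, no filter and left-out libraries were alternatives, and fits were tried on simulated counts. SE is the log2 change over the root of F.

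Rows kept their file names, and 2473 of 59051 had a symbol, some through LOC identifiers in RefSeq of ARS-UCD2.0, used for names and neighbours only. FAM208B is not a listed synonym there, and its link to TASOR2 is textbook knowledge. That table has no gene descriptions, so retroelement genes were taken by symbol alone. Named genes are the 3 transcripts, listed genes that passed or had the highest levels, and the 5 rows most like each transcript. Members, lists and tests were chosen with earlier results of these data known.

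Granulosa cells and biopsies are paired by follicle, from the series text and labels. Their deviations from group means correlated at -0.0211 to 0.132 in 8 same-label pairs and -0.146 to 0.138 in 56 others. In the matched set the same-number pairs gave 0.116 to 0.209 and others -0.196 to 0.120. The ranges overlap in both sets, so they do not settle the pairing. The numbers of the matched set were taken as pairs from the titles. Replicates of every group differed by more than counting noise (chi-square per degree of freedom 4.7 or more). The closest pair gave 4.7 and 6.07 in the blastocyst and cleavage cumulus groups and 44.6 to 82.5 in the other groups. The cell type fits used a shared estimate of the spread for all of them.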

Additional observations from a re-analysis of the deposited data

Results flagged for a closer look

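In 24 sets of 4 libraries, 3 transcripts in 8 groups, 1 value stood far from the other 3: KIAA1551 in whole oocyte 2, at 112.3 CPM against 179.0 to 192.4 CPM. Chance flags about 1 in 20 such sets. FAM208B was highest in the same oocyte, at 78.9 CPM.

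In CPM of library totals, FAM208A was higher in the biopsy than in the granulosa cells in all 4 blastocyst follicles and lower in all 4 cleavage follicles, and the mean log2 ratios differed by 1.07. Of all rows tested 0.0461% had this split on that scale, and 0.368% with TMM over all 32 libraries. The ratios of B21 (0.07) and B23 (-0.07) were close to no difference. With TMM over all 32 libraries the cleavage follicle D10 turned, so the split held in part, and the mean log2 ratios differed by 1.81. The median fitted difference of all rows, granulosa minus biopsy, was 0.15 with TMM and 0.80 with library totals, opposite in sign to FAM208A. The fitted test of this difference did not pass with TMM (edgeR adjusted p = 0.0637) or with library totals (edgeR adjusted p = 0.144). It passed with DESeq2 size factors (edgeR adjusted p = 0.0330), with the DESeq2 Wald test (adjusted p = 0.00293) and without granulosa B21 (edgeR adjusted p = 0.0276). Without granulosa B20 and D27, with only B21 and D24 left in that group, it did not pass (edgeR adjusted p = 0.290).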

How the results depend on the processing

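Leaving out 1 library at a time moved the rows called between granulosa fates from 2482 to 8131, in the fate difference between tissues from 443 to 4955, between cumulus fates from 0 to 7, and in biopsies and in the matched set from 0 to 0. DESeq2 called 11431, 5597, 140, 172 and 177 rows in these comparisons. Without a filter 183 rows passed between cumulus fates, 27 in biopsies, 13 in the matched set and 1237 in the fate difference, which had 3783 with library totals. Without granulosa B20 and D27 the counts were 0 for granulosa fate and 45 for the fate difference, with only B21 and D24 left in that group.

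With 1 library left out, granulosa fate changes ran from -1.74 to -0.86 for FAM208A, -1.26 to -0.78 for FAM208B and -1.24 to -0.21 for KIAA1551, which was 0.17 without B20 and D27. DESeq2 gave FAM208A -1.03. Biopsy changes ran from -0.52 to 0.18 for KIAA1551 and -0.12 to 0.27 for FAM208B, and cumulus changes from -0.75 to -0.57, -0.56 to -0.40 and -0.18 to -0.11 for KIAA1551, FAM208A and FAM208B. Matched KIAA1551 ran from -0.38 to 0.05 and was 0.11 with library totals. The fate difference was 0.34 for KIAA1551 without B20 and D27, and -1.54 for FAM208A with DESeq2, with -1.98 to -1.23 when 1 library was left out.

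For biopsy minus granulosa cells KIAA1551 ran from -0.32 to 0.16 and was -0.61 without B20 and D27, while library totals gave FAM208A 0.22 and FAM208B 0.39. For granulosa minus cumulus cells FAM208A ran from 0.17 to 0.60, and was 0.50 without a filter, 0.57 with DESeq2, 0.68 with library totals and 0.77 without B20 and D27. For oocyte minus cumulus cells FAM208B ran from -0.20 to 0.07, at -0.73 with library totals and 0.03 without a filter, and KIAA1551 from -1.44 to -1.08. The causes were not tested.

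With the follicle or oocyte number as a replicate block, KIAA1551 for biopsy minus granulosa cells turned to 0.05, and in the matched set it was -0.06. The fate difference of FAM208A was -1.79 with the block (edgeR adjusted p = 0.0766), and 1401 rows passed. The block changed no call of the 3 transcripts. Levels and signs of pairs were also taken with TMM over all 32 libraries, a scaling chosen after seeing the data. The biopsy was then higher than granulosa cells in 5 of 8 pairs for FAM208A and 3 for KIAA1551, against 4 and 2, with 7 for FAM208B on both scales.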
